A study of Homo sapiens with 2 samples.

Results

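Glycosylphosphatidylinositol (GPI) anchors and N-linked glycans are assembled on lipids of the endoplasmic reticulum (ER) and then transferred whole to proteins. The genes described here encode the enzymes of both routes. They are the symbols of the count table that name a PIG gene (PIGR, the immunoglobulin transporter, left out) or an MGAT or DPM gene. ALG genes named by a number alone were also taken (so not ALG10B or ALG1L), as were 15 further enzymes and subunits chosen by name. This gave 60 of 19220 gene symbols, of which 22 act in GPI synthesis, 31 in N-glycan synthesis and processing, and 7 supply mannose to both. The rule goes by name and holds no measured value, though it was written with earlier results of these data known.

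The samples were 1 library of untreated H9 cells (0 h of doxorubicin) and 1 library of H9 cells kept with 0.05 µM doxorubicin for 6 h, both labelled wild type. H9 is a human line grown from a T cell lymphoma. The drug, an anthracycline, poisons topoisomerase II and so breaks DNA. Poly(A) RNA was sequenced, and counts summed to 33730703 in the untreated and 50174434 in the treated library. With 1 library a condition there was no test and no p-value, and the treatment cannot be told apart from any other difference between the cultures or libraries. Of the T cell markers CD3D, CD3E, CD3G, CD4, CD5, LCK and ZAP70 were measured, while CD2 (0 and 2 counts) and CD7 (8 in each) were not. Summed levels in the untreated and the treated library were 1128 and 1131 CPM (counts scaled to equal library size) for 9 T cell markers, 206 and 150 for 5 B cell markers, 5.65 and 5.39 for 6 myeloid markers, and 84.5 and 69.9 for 5 epithelial and fibroblast markers. The near-equal T cell sums hide differences both ways, with 4 of the 7 measured markers above a ratio of 1 and 3 below. CD3G had 28.3 and 61.0 CPM and LCK 148 and 207, while CD3D had 216 and 145 and CD3E 217 and 173. Most of the B cell sum was CD79A (182 and 129 CPM) and most of the epithelial sum was EPCAM (78.6 and 63.0 CPM), while PAX5 was at 0 in both libraries; whether these markers have a part in the results was not tested. In bulk RNA, fewer cells of a type and less RNA per cell cannot be told apart.

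A GPI anchor begins when N-acetylglucosamine (GlcNAc) is joined to phosphatidylinositol. It is then deacetylated, acylated, extended with mannoses and ethanolamine phosphates, and exchanged for the end of a protein by the transamidase. T cells carry many GPI-anchored surface proteins, among them CD48, CD52, CD55 and CD59. An N-glycan begins on dolichol phosphate, is built on the cytosolic and then the luminal face of the ER, and is transferred to asparagines by the oligosaccharyltransferase. Glucosidases then trim it, and the MGAT enzymes of the Golgi add its branches, which on T cells bind galectins.

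The transamidase subunit PIGS and the ethanolamine phosphate transferase PIGO had the highest ratios among all members, and DPM3, a subunit of the enzyme that loads mannose onto dolichol phosphate, had the lowest. Their upstream sequences are shown because these 3 genes mark both ends of the range. Each is the stretch of 250 bases before the first start that RefSeq lists for the gene (GRCh38.p14), in the direction of the gene. Capitals mark a CCAAT box (CCAAT, also read on the other strand as ATTGG) or an ETS site (CCGGAAGT, on the other strand ACTTCCGG).
PIGO, chr9:35096592-35096841, minus strand: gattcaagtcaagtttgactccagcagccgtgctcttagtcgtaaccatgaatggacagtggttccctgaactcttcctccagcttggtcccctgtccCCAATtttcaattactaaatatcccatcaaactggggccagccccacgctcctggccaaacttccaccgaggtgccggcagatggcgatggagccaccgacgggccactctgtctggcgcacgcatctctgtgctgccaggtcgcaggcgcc
PIGS, chr17:28571525-28571774, minus strand: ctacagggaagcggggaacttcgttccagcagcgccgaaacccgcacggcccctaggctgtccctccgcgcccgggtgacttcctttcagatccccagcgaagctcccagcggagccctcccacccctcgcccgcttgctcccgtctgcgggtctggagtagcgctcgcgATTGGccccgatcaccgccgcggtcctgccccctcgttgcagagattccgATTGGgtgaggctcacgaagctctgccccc
DPM3, chr1:155140532-155140781, minus strand: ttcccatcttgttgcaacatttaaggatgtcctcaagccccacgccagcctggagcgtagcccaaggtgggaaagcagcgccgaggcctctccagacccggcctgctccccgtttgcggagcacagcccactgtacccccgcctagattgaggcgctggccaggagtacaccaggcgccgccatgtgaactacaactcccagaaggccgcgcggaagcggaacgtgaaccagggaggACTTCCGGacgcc
PIGO held 1 CCAAT box, PIGS held 2 and DPM3 held 0, while DPM3 held 1 ETS site and the others 0. CCAAT was found on either strand in 32.0% of 35116 such stretches in the table and in 30.1% of the 73 stretches that belong to 49 members. The ETS letters were found in 3.42% of all stretches and in 9.59% of those of the members, which is 7 of the 73, in 6 genes. DPM3 has 2 stretches in the table that overlap and hold the same site, so that site was counted for each. None of the 3 stretches shown held a GC box (GGGCGG, 42.6% of all stretches) or an E box (CACGTG, 6.34%). The ER stress response element, which contains a CCAAT box, was found in 0.074% of all stretches and in 1 of the 73. These matches are letters in a window and do not show binding. The members with no entry in the table were ALG10, GPAA1, MGAT3, MGAT4A, MOGS, PIGF, PIGG, PIGH, PIGY, RPN1 and STT3B.

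A gene was taken as measured from a sum of 100 counts over the 2 libraries, and 57 of the 60 members were. The size rule called a gene higher or lower when its ratio of treated over untreated, after scaling of the libraries, was at least 1.5-fold (0.585 on the log2 scale) and its 95% counting interval excluded a ratio of 1. Intervals cover counting error only and leave out differences between cultures or libraries, which 1 library a condition cannot show. PCR copies of 1 molecule could not be told from separate molecules, so even the counting error may be larger than the intervals give. By this rule 6 members were higher (10.5%), against 7.26% of the 11244 measured genes, and 1 was lower (1.75%), against 9.57%. The median log2 ratio was 0.041 over the members and 0.007 over all measured genes. Of the GPI genes 2 of 21 were higher and 0 lower, with a median of 0.058. Of the N-glycan genes 4 of 29 were higher and 0 lower, with a median of 0.069. Of the 7 mannose supply genes 0 were higher and 1 lower, with a median of -0.063, which was at 0.005 when the libraries were scaled by total counts. Intervals excluded a ratio of 1 at any size for 24 members above it and 16 below it (42.1% and 28.1%, against 38.1% and 36.9% of all measured genes).

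**Figure D1:**
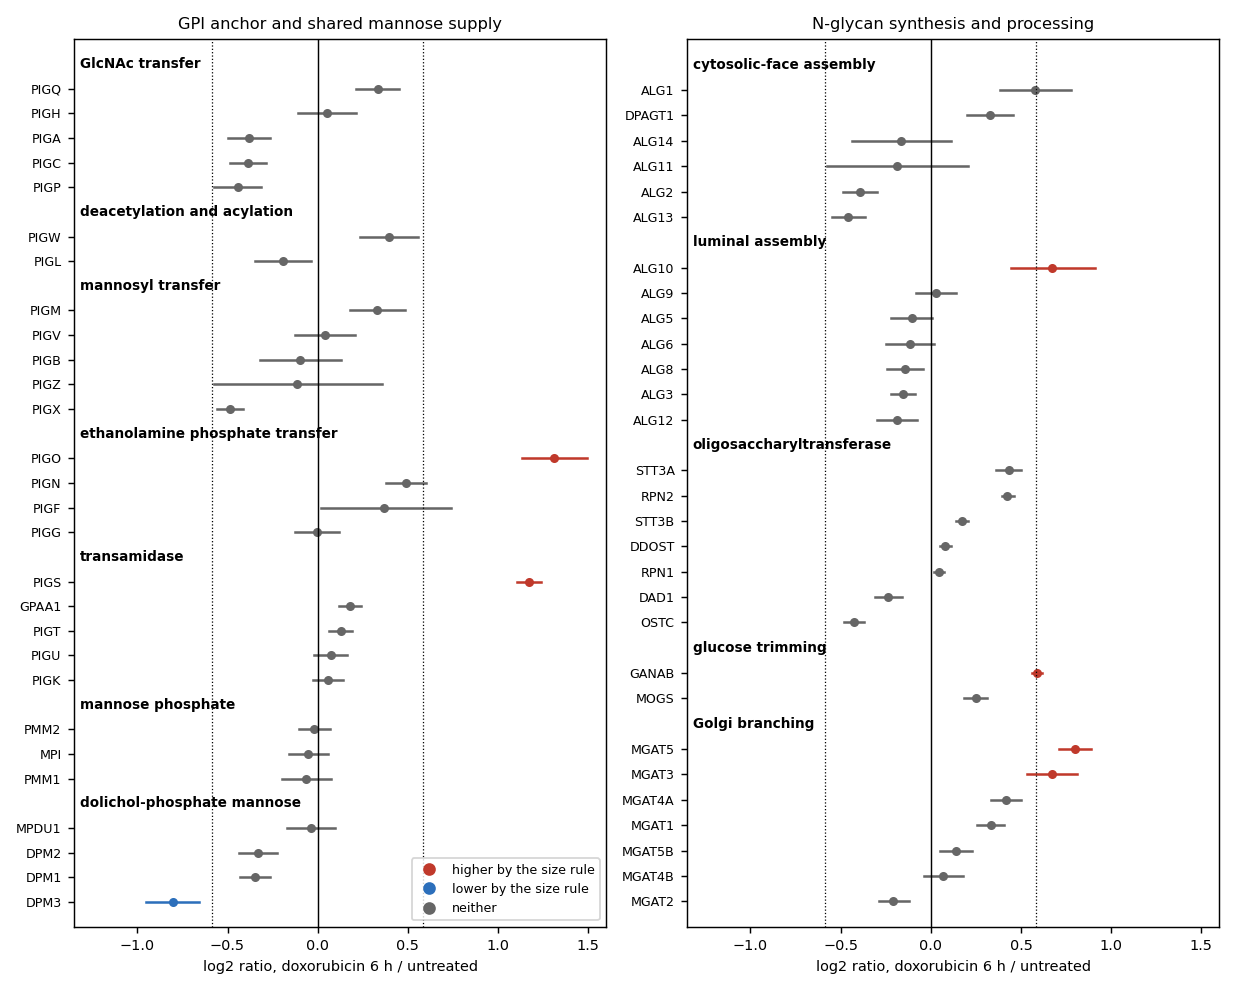
Log2 ratio of doxorubicin over untreated (x axis) for each measured member (y axis), grouped by step, with 1 library per condition; bars are 95% counting intervals, dotted lines the size limit of 0.585, and colour the call. PIGO at 1.31 and PIGS at 1.17 stand to the right of all other members, and DPM3 at -0.80 to the left.

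The first GPI step is carried out by a GlcNAc transferase made of several membrane proteins. Of its 5 measured subunits 3 had intervals below a ratio of 1, as 36.9% of all measured genes did. PIGA, the catalytic subunit, had 34.2 and 26.3 CPM in the untreated and the treated library, with a log2 ratio of -0.38 (-0.50 to -0.27). PIGP was the lowest of the step with 27.4 and 20.2 CPM, at -0.44 (-0.57 to -0.31). PIGC lay close to PIGA, with 44.5 and 34.1 CPM, at -0.38 (-0.49 to -0.28). After adjustment for transcript length PIGA was at -0.43, PIGP at -0.70 and PIGC at -0.035. By coding length alone they were at -0.405, 0.01 and -0.24. PIGQ was the highest with 26.2 and 33.0 CPM, at 0.33 (0.21 to 0.45), and 31.1% of the stretches of 50 bases sampled from it occur in other annotated genes. PIGH had 15.8 and 16.3 CPM, and 19.1% of its exons are overlapped by another gene. Without adjustment none of these subunits passed the size rule, and the subunits of this 1 enzyme were on both sides of a ratio of 1. PIGY, its smallest subunit, was listed at 0 in both libraries, but all of its exons lie within PYURF, which was listed at 0 too, so these values cannot show whether PIGY was expressed. Of the next enzymes, the deacetylase PIGL was at -0.19 (-0.35 to -0.04), with 18.4 and 16.1 CPM. The inositol acyltransferase PIGW was at 0.39 (0.23 to 0.55), with 14.5 and 19.1 CPM, and 20.8% of its exons are overlapped by another gene.

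The mannosyltransferases also lay on both sides. PIGM, which adds the first mannose, had 16.0 and 20.2 CPM, at 0.33 (0.18 to 0.48). PIGX, the partner that stabilises PIGM, had 92.3 and 65.8 CPM, at -0.49 (-0.56 to -0.42). The log2 ratio of PIGM was thus 0.82 above that of PIGX (0.65 to 0.99, a counting interval), a difference in which the scaling of the libraries cancels. A trend with transcript length does not cancel in it. After adjustment for transcript length PIGM was at 0.07 and PIGX at -0.485. PIGV and PIGB, which add the next mannoses, were at 0.04 (-0.12 to 0.21) and -0.10 (-0.32 to 0.13), and 14.2% of the exons of PIGB are overlapped. PIGZ, the enzyme of an optional further mannose, had 68 and 98 counts, at -0.12 (-0.57 to 0.35). A change of PIGZ inside that interval could not be seen at this depth.

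Ethanolamine phosphates are added by PIGN to the first mannose, by PIGG to the second and by PIGO to the third, the one through which the anchor is joined to the protein. PIGF is the partner that PIGO and PIGG need. PIGO had 314 counts untreated and 1214 treated, or 9.53 and 23.6 CPM. It was 2.48-fold higher (2.19 to 2.82), and 99.6% of measured genes had a lower ratio. PIGN had 30.4 and 42.8 CPM, at a log2 ratio of 0.49 (0.38 to 0.60), below the size limit. PIGF, from only 97 and 196 counts and with 25.4% of its exons overlapped, was at 0.37 (0.02 to 0.74). PIGG, which uses the same partner as PIGO, had 27.4 and 27.3 CPM, at -0.005 (-0.13 to 0.12). Within the counts of these 4 genes the share of PIGO was 13.6% untreated (Wilson 95% interval 12.2 to 15.01) and 24.2% treated (23.1 to 25.5). The share of PIGG was 39.0% (37.0 to 41.0) and 28.0% (26.8 to 29.3). PIGO was therefore higher in the treated library against the other genes of its own step, whichever way the libraries are scaled.

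The transamidase cuts the end of the protein and attaches the anchor, with PIGK as its catalytic subunit and GPAA1, PIGS, PIGT and PIGU around it. PIGS had 2367 counts untreated and 8305 treated, or 71.9 and 162 CPM. It was 2.25-fold higher (2.15 to 2.36), and 99.3% of measured genes had a lower ratio. The other 4 subunits kept within a narrow range, from 0.06 (-0.03 to 0.14) for PIGK, with 57.1 and 59.5 CPM, to 0.18 (0.12 to 0.24) for GPAA1, with PIGT at 0.13 and PIGU at 0.07. The share of PIGS in the counts of the 5 subunits was 18.95% untreated (18.3 to 19.6) and 32.6% treated (32.0 to 33.2). Levels of different genes were compared roughly, per kilobase of the longest annotated transcript. The isoform expressed may be shorter, so the order of close levels is uncertain. By this measure PIGS had 24.97 CPM untreated, below GPAA1 at 48.0, PIGT at 45.7 and PIGU at 29.3. In the treated library it had 56.2 CPM per kilobase, above GPAA1 at 54.3, PIGT at 49.9, PIGU at 30.8 and PIGK at 12.9. By these lengths the order of the subunits differed between the libraries by the place of PIGS alone, with PIGS and GPAA1 close in the treated library.

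**Figure D2:**
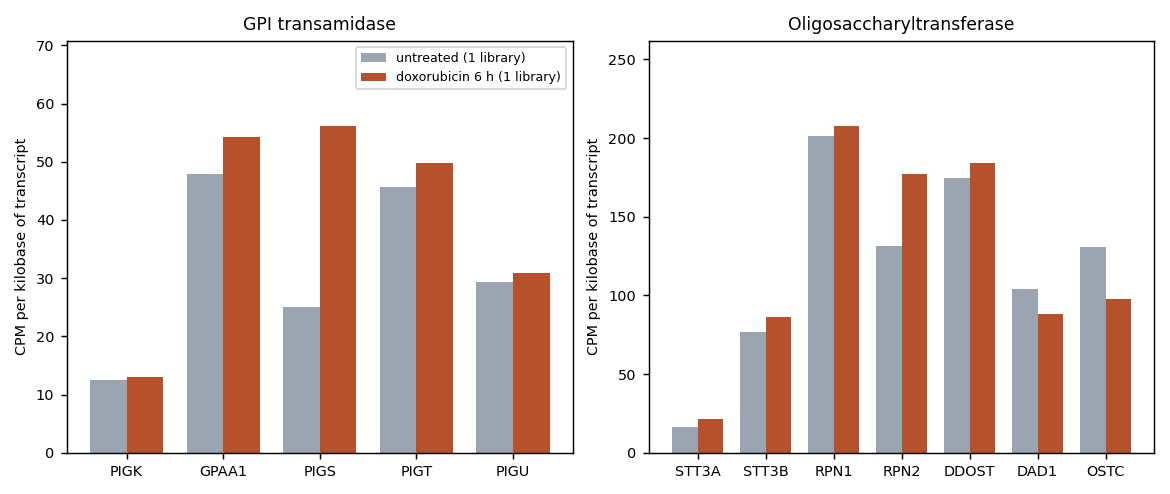
Level in CPM per kilobase of transcript (y axis) of the subunits of the GPI transamidase and of the oligosaccharyltransferase (x axis), with 1 bar per library. PIGS is 24.97 untreated and 56.2 treated, while RPN1, at 201 and 208, is the highest subunit of the oligosaccharyltransferase by this measure in both.

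Mannose reaches both routes through MPI and the phosphomannomutases PMM1 and PMM2, which make mannose phosphates, and through the dolichol-phosphate mannose synthase. MPI, PMM1 and PMM2 were at -0.05 (-0.16 to 0.06), -0.06 (-0.20 to 0.07) and -0.02 (-0.10 to 0.07). PMM1 had 22.8 and 21.8 CPM, and PMM2 56.7 and 56.0 CPM. Another gene overlaps 24.6% of the exons of MPI, and 52.8% of the stretches of PMM2 occur in other genes. The 3 subunits of the synthase were all below a ratio of 1. Adjustment for transcript length moved them all close to 1 and turned the sign of DPM1 and DPM3, with log2 ratios of DPM1 at 0.12, DPM2 at -0.01 and DPM3 at 0.04. DPM1, the catalytic subunit, had 65.9 and 51.7 CPM, at -0.35 (-0.43 to -0.27). DPM2 had 41.8 and 33.2 CPM, at -0.33 (-0.43 to -0.23). DPM3, which tethers DPM1 to the membrane, had 800 counts untreated and 714 treated, or 24.3 and 13.9 CPM, and was 1.75-fold lower (1.58 to 1.94). MPDU1, needed for the use of dolichol-linked sugars, had 23.5 and 22.8 CPM, at -0.04 (-0.17 to 0.09). The annotated transcript of DPM3 has 517 bases, the shortest among the measured members.

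On the cytosolic face, DPAGT1 starts the N-glycan and ALG13 with ALG14, ALG1, ALG2 and ALG11 extend it. ALG1, the first mannosyltransferase, was just below the size limit with 9.32 and 13.9 CPM, at 0.58 (0.38 to 0.78), and 21.9% of its exons are overlapped. ALG13, the catalytic subunit for the GlcNAc that follows that of DPAGT1, was the lowest of the step with 56.2 and 40.9 CPM, at -0.46 (-0.55 to -0.37). Its membrane anchor ALG14 had 5.74 and 5.12 CPM, at -0.17 (-0.44 to 0.11). DPAGT1 was at 0.33 (0.20 to 0.46), with 21.3% of its exons overlapped, and ALG2 at -0.39 (-0.49 to -0.30). ALG11 had 97 and 133 counts, but 39.7% of its exons lie in UTP14C, a gene on the same strand with 299 and 979 counts, so its value is uncertain.

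On the luminal face ALG3, ALG9 and ALG12 add mannose, and ALG6, ALG8 and ALG10 add the glucoses. ALG5 makes the dolichol-phosphate glucose for this. All of these but ALG10 lay between -0.19 (-0.30 to -0.08) for ALG12, with 34.6 and 30.4 CPM, and 0.03 (-0.08 to 0.14) for ALG9. The value of ALG9 is uncertain, since 24.4% of its exons are overlapped and 76.1% of its stretches occur in other genes. ALG8, which acts just before ALG10, was at -0.14. ALG10, which adds the last glucose, the signal for transfer to protein, had 217 counts untreated and 540 treated, or 6.59 and 10.5 CPM. It was 1.59-fold higher (1.36 to 1.88). It shares 25% of such stretches with other genes, foremost its near-identical copy ALG10B, which had 23.0 and 24.6 CPM, at 0.10 (-0.04 to 0.23). No source used here says how the counting divided reads between the copies, so the ratio of ALG10 is uncertain.

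The oligosaccharyltransferase exists with STT3A or STT3B as its catalytic subunit, the first bound to the translocon and aided by OSTC and KRTCAP2, the second aided by MAGT1 or TUSC3. None of its 7 members passed the size rule. STT3A had 73.5 and 99.1 CPM, at 0.43 (0.36 to 0.50), and STT3B had 325 and 366 CPM, at 0.17 (0.14 to 0.21). The log2 ratio of STT3A was 0.26 above that of STT3B (0.18 to 0.34). Per kilobase STT3B remained the more abundant, with 76.5 and 86.2 CPM against 16.1 and 21.7 for STT3A. RPN2 had 331 and 445 CPM, at 0.43 (0.39 to 0.46), while RPN1 had 466 and 481 CPM, at 0.05 (0.02 to 0.07), and DDOST was at 0.08 (0.05 to 0.11), with 19.1% of its stretches shared. The small subunits lay lowest: DAD1 at -0.24 (-0.31 to -0.16) and OSTC, with 141 and 105 CPM, at -0.43 (-0.48 to -0.37). Adjusted for transcript length both were above 0, DAD1 at 0.45 and OSTC at 0.08. Of 5 further subunits of the complex, 3 of the 4 measured were lower and 0 higher, where 9.57% of all measured genes were lower, and TUSC3 was at 0 in both libraries. KRTCAP2 had 90.2 and 43.1 CPM and was 2.09-fold lower (1.98 to 2.21), with 66.7% of its stretches shared with another annotated gene. TMEM258 was 1.81-fold lower (1.67 to 1.97), and MAGT1 was at 0.36 (0.29 to 0.42). Other genes overlap 18.43% of the exons of KRTCAP2, 18.45% of those of TMEM258 and 21.0% of those of OST4. The lower subunits all have short transcripts (KRTCAP2 552 bases, OST4 561, TMEM258 575), and after adjustment for transcript length their log2 ratios were -0.24, 0.17 and -0.06. Adjusted for GC content and both the transcript and the coding length they were -0.43, -0.03 and -0.155.

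After transfer, MOGS (glucosidase I) removes the outer glucose and GANAB, the catalytic subunit of glucosidase II, the next ones. GANAB had 14513 counts untreated and 34011 treated, or 441 and 662 CPM. Its ratio was 0.59 on the log2 scale (0.56 to 0.62), just past the size limit. MOGS had 89.7 and 107 CPM, at 0.25 (0.19 to 0.31). PRKCSH, the other subunit of glucosidase II, had 373 and 350 CPM, at -0.09 (-0.13 to -0.06). The log2 ratio of GANAB was 0.68 above that of PRKCSH (0.64 to 0.72). After adjustment for transcript length GANAB was at 0.51 and PRKCSH at 0.05.

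The Golgi enzymes that branch N-glycans are MGAT1 and MGAT2, which start the branches of the core, MGAT3, which adds the bisecting GlcNAc, and MGAT4A, MGAT4B, MGAT5 and MGAT5B, which add further branches. MGAT5 had 1405 counts untreated and 3816 treated, or 42.7 and 74.3 CPM, and was 1.74-fold higher (1.64 to 1.85). MGAT3 had 18.5 and 29.4 CPM and was 1.59-fold higher (1.45 to 1.75). MGAT4A had 52.5 and 70.1 CPM, at 0.42 (0.34 to 0.50), and MGAT1 65.8 and 82.9 CPM, at 0.33 (0.26 to 0.41). MGAT2 was the lowest of the step with 61.6 and 53.4 CPM, at -0.21 (-0.29 to -0.12). MGAT5B and MGAT4B were at 0.14 (0.05 to 0.23) and 0.07 (-0.04 to 0.18). The log2 ratio of MGAT5 was 0.66 above that of its relative MGAT5B (0.54 to 0.78), and that of MGAT4A was 0.35 above that of MGAT4B (0.21 to 0.49). After adjustment for transcript length MGAT4A and MGAT4B were close, at 0.11 and 0.08, while MGAT5 was at 0.50 and MGAT5B at 0.01. Adjusted for GC content and both the transcript and the coding length, MGAT4A and MGAT4B were at 0.24 and -0.0, and MGAT5 and MGAT5B at 0.40 and 0.05. MGAT4C and MGAT4D were at 0 in both; a count of 0 still leaves room for a level of 0.0911 CPM in the untreated and 0.0584 CPM in the treated library.

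Ratios went with transcript length in this table. The 2209 genes of shortest annotated transcript had a median log2 ratio of -0.39, and the 2209 of longest transcript one of 0.28. Across all 11043 measured genes with a length Spearman's rho was 0.55, and across the 57 measured members it was 0.33, as a description over genes of the same 2 libraries. The members had a median transcript length of 2701 bases, against 3267 for all measured genes. After subtraction of the length trend of all genes, PIGO was at 1.221 and PIGS at 1.196, and both stayed past the size rule, as ALG10 did at 0.67. MGAT5 and MGAT3 were then at 0.50, and GANAB at 0.51, all below the size limit. DPM3 was at 0.04, close to the ratio usual for its transcript length, but was at -0.33 after adjustment for coding length alone. Adjusted for GC content and both the transcript and the coding length, PIGO and PIGS were both at 1.06 and ALG10 at 0.78, while MGAT5 was at 0.40, MGAT3 at 0.48, GANAB at 0.33 and DPM3 at -0.03. The calls by these adjustments are set beside those over all genes. By transcript length 5 members were higher, among them PIGF at 0.75 and ALG1 at 0.74, and 1 was lower, PIGP at -0.70, where 5.03% of all genes were higher and 4.55% lower. By coding length alone 6 were higher, with MGAT5 at 0.68, MGAT3 at 0.62 and PIGF at 0.63, and 1 was lower, ALG13 at -0.69, where 5.97% of all genes were higher and 4.2% lower. By all 3 properties 4 were higher, with PIGF at 0.83, and 1 was lower, ALG13 at -0.65, where 4.29% of all genes were higher and 3.41% lower.

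**Figure D3:**
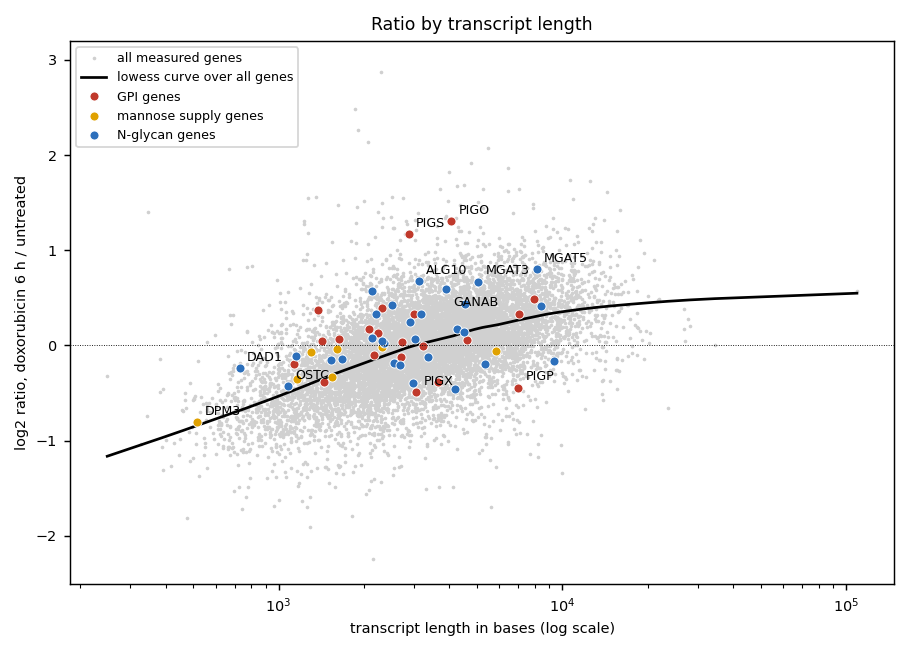
Log2 ratio of doxorubicin over untreated (y axis) against annotated transcript length on a log scale (x axis); grey points are all measured genes with a length, coloured points the members, and the line is a lowess curve over all genes. DPM3, with 517 bases, lies on the curve, while PIGO and PIGS lie more than 1 log2 unit above it.

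**Figure D4:**
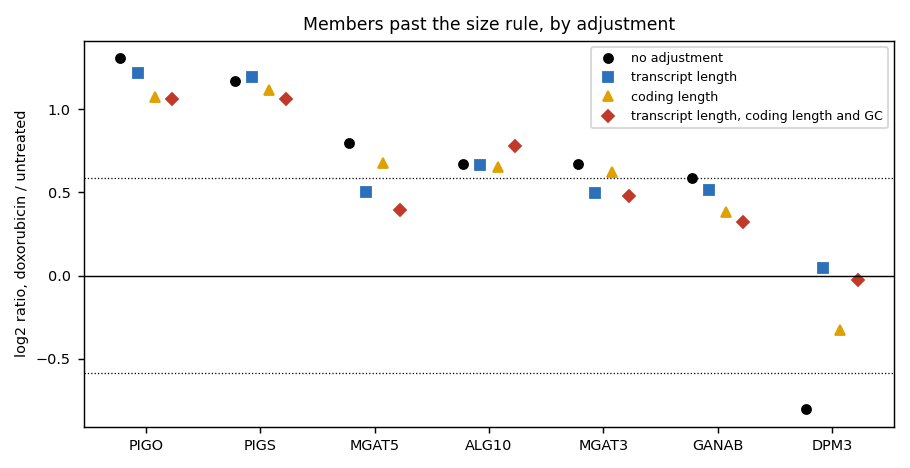
Log2 ratio (y axis) of the 7 members past the size rule (x axis) without adjustment and after 3 adjustments for length and GC content; dotted lines are the size limit of 0.585. PIGO, PIGS and ALG10 stay above the limit in all 3, and DPM3 is above the lower limit in all 3.

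Other genes of the pathways were described from lists chosen by function, to be read against the 7.26% of all measured genes that were higher and the 9.57% that were lower. Of 6 genes that remodel the finished GPI anchor, 5 were measured, 1 was higher and 0 lower, with a median of 0.044. The higher one was MPPE1, which removes an ethanolamine phosphate, with 227 and 623 counts, 1.76-fold higher (1.51 to 2.06) and with 29.6% of its exons overlapped. Of 14 genes for dolichol and sugar nucleotides 0 were higher and 0 lower, with a median of 0.035. NUS1, of the dolichol-making enzyme, had 287 CPM in both libraries, and the sugar phosphate isomerase GPI, whose symbol is not the anchor, had 632 and 680 CPM. Of 17 genes of glycan processing in the ER and Golgi, 16 were measured, 4 were higher and 0 lower, and the median of 0.30 was above that of all genes. They were the mannosidase MAN1A2, with 12.6 and 25.8 CPM and 2.04-fold higher (1.83 to 2.29), the galactosyltransferase B4GALT1, 1.71-fold higher (1.58 to 1.85), the folding sensor UGGT1 and the sialyltransferase ST6GAL1. The median transcript length of this list was 4656 bases, and its median was 0.32 after adjustment for transcript length and 0.19 after adjustment for all 3 properties, each with 2 higher (5.03% and 4.29% of all genes). Of the GPI-anchored surface proteins, the products that need the anchor, 24 had a row and 17 were measured. The glypican GPC2 was higher, 1.59-fold (1.38 to 1.85), 0 were lower and the median was 0.080. After adjustment for transcript length 4 were higher (5.03% of all genes) and the median was 0.28. They were BST2, EFNA4, GPC2 and ULBP3. After adjustment for all 3 properties 3 were higher (4.29% of all genes), without ULBP3, and the median was 0.21. In both 0 were lower. EFNA4 had only 65 and 134 counts, and EFNA4 and ULBP3 overlap another gene or share sequence at 10% or more. Without adjustment CD52 was at -0.577, CD48 at -0.297, CD55 at -0.166 and CD59 at 0.436. After adjustment for transcript length these were at 0.316, 0.034, -0.141 and 0.153. THY1, the surface protein of this list with the most counts, had 352 and 355 CPM.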

How the data were processed

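The deposited table holds raw read counts per gene symbol for 2 libraries of H9 cells. HISAT2, featureCounts and hg19 are named in the submitters' processing notes. Their versions, the annotation, strand setting and the handling of multiply aligned reads are named in no source used here. Library sizes were scaled by TMM (edgeR 4.0.16, R 4.3.3), log2 ratios used an added count of 0.5, and intervals are exact Clopper-Pearson intervals of the scaled ratio at 95%. CPM are counts over the TMM-scaled library size. The 13 differences between pairs of genes have Woolf counting intervals. The size rule was run on simulated libraries that held counting error only. They held no differences between cultures or libraries, so how the rule behaves under those was not tested. Transcript and coding lengths, GC content, exon overlap with other protein-coding genes and shared stretches of 50 bases came from GENCODE 29, on another assembly than the counts, using the longest transcript paired with RefSeq. Overlaps or shares of at least 10% are marked, which holds for 13 of the 57 measured members. Length trends were fitted with lowess curves (span 0.3) or regression splines.

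Full values are given for members past the size rule and for the highest and lowest of each step. From other lists up to 2 highest and 2 lowest genes past the rule, or the 2 with most counts, are named; further genes were chosen after their values were seen. The members and lists were chosen with earlier results of these data known. CD24 and TRAC have no row in the table under these symbols. Alternatives are scalings, count minimums, an added count of 2, fold limits, a 99% interval, the length adjustments and leaving out marked members.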

Additional observations from a re-analysis of the deposited data

How the results depend on the processing

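PIGO and PIGS stayed past the size rule under both other scalings (DESeq2 size factors and total counts), an added count of 2 and all 3 adjustments, and 0 of the 57 member calls changed with DESeq2 size factors or the added count. Under total counts ALG1 passed at 0.64, and 56.0% of all calls were higher against 43.1% with TMM. Adjusted for transcript length, the higher N-glycan genes were 2, the lower GPI genes 1 (PIGP, at -0.70, whose annotated transcript of 6998 bases holds only 402 coding bases), the lower mannose supply genes 0, and the medians of GPI, N-glycan and mannose supply genes 0.20, 0.17 and 0.11. DPM3 changed sign, to 0.044. Adjusted for GC content and both lengths, the higher N-glycan genes were 1, the lower ones 1, the lower mannose supply genes 0 and their median 0.14. Adjusted for coding length alone, chosen after seeing the data, the lower N-glycan genes were 1, the lower mannose supply genes 0 and their median 0.13. The cause was not tested. At a fold limit of 1.3 the higher and lower GPI genes were 4 and 4 and the higher and lower N-glycan genes 8 and 3. At a limit of 2 the higher N-glycan genes were 0 and the lower mannose supply genes 0. Without members that overlap or share sequence the mannose supply median was -0.33, over 5 genes. Under total counts the GPI median was 0.13 and the N-glycan median 0.14, and the GPI median was 0.16 after adjustment for GC content and both lengths. Other counts of members past the rule stayed within 1.5 times. No paired analysis was possible because each condition has 1 library. Depth limits PIGZ, PIGF, ALG11 and ALG14, the members with the fewest counts.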

Other observations

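Values of the nearest measured protein-coding genes are given for the members past the size rule. These were taken at any distance and the distances were not recorded, so they need not lie close to the member. PIGO lies between FANCG and STOML2, both on its strand, which were at log2 ratios of 0.23 (0.14 to 0.33) and 0.01 (-0.04 to 0.07). PIGS lies between UNC119 and ALDOC, also on its strand, at -0.23 (-0.27 to -0.18) and 0.32 (0.26 to 0.39). The nearest measured neighbours of MGAT5 were CCDC74A at -0.89 (-1.07 to -0.72) and CCNT2 at 0.06 (-0.03 to 0.14). On one side of DPM3 was KRTCAP2, the oligosaccharyltransferase subunit on the same strand, and both were lower by the size rule. On the other side of DPM3 was SLC50A1, at -0.14 (-0.25 to -0.04). MGAT3 lies between TAB1, at 0.08 (-0.01 to 0.18), and MIEF1, at 0.58 (0.53 to 0.64). GANAB lies between B3GAT3, at -0.15 (-0.24 to -0.07), and INTS5, at 0.25 (0.15 to 0.36). The nearest measured genes on either side of ALG10 were PKP2, at 0.39 (0.26 to 0.52), and its copy ALG10B, which need not be adjacent to it. ALG11 did not pass the rule; its neighbours were UTP14C, whose exons overlap its own, at 1.07 (0.88 to 1.26), and ATP7B, at 0.26 (0.04 to 0.47). These genes were named for their place, after their values were seen, and the order is that of GENCODE 29.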
